A study of Mus musculus with 4 samples.

Results

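The genes described here are 34 antiviral interferon-stimulated genes and their regulators in naive helper T cells with or without a deleted Furin gene. They comprise the IFIT, OAS and MX families, the ISG15 system, other antiviral effectors, cytoplasmic RNA sensors, and the STAT and IRF factors that drive them. Every probe set that the array's annotation assigns to a single one of these symbols was taken, which gave 50 probe sets for 32 of the 34 genes. The whole series holds 18193 genes with a probe set of their own. Isg15 has a probe set that the annotation also assigns to another gene, and Ifi44 has none in the annotation used, so neither is given a value. Of the 32 genes, 31 had a probe set above the filter on dim signals, with 46 of the 50 probe sets, and Mx2 did not. Unless stated otherwise, each gene is represented by its brightest probe set above that filter.

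The samples were 4 Affymetrix mouse genome arrays of fresh naive helper T cells, which carry CD4 and CD62L and lack CD44, taken from mice aged 10 to 11 weeks. The 2 knockout arrays came from mice with both Furin alleles flanked by loxP sites and a Cre transgene under CD4 control, which removes the floxed segment in T cells only. The 2 wild-type arrays came from littermates with the same floxed alleles and no Cre, so the groups share the floxed Furin gene and differ in Cre. The labels do not say which exons are flanked, or whether the arrays of a group came from different animals, so any p-value measures the spread between these arrays only. Furin trims precursor proteins to their active forms, and the series compares naive T cells with and without it.

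Interferons bind receptors on the cell surface, and the receptor's JAK kinases then phosphorylate STAT proteins. Type I interferon signals chiefly through a complex that contains STAT2 and IRF9 and binds the interferon-stimulated response element (ISRE) in promoters. Type II interferon, or interferon gamma, acts chiefly at the gamma-activated site (GAS) of promoters and induces IRF1, which can itself bind ISRE-like sequences. The products block viral entry, translation or replication, and several regulators, such as USP18, in turn limit the response.

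Promoter sequences of 6 of these genes are shown because they carry the elements through which the family is known to be induced, and because the genes differ in how the knockout arrays compared with the wild-type arrays. Each run is the 250 bases before a transcription start in RefSeq (assembly GRCm38.p6), written 5′ to 3′ in the direction of transcription, with matches in capitals. The ISRE core was searched as GAAANNGAAA and, for the other strand, TTTCNNTTTC, and the GAS as TTCNNNGAA, which reads the same on both strands. Matches to the ISRE core may overlap each other. The windows are chr19:34583279-34583528 (plus strand) for Ifit3, chr19:34640639-34640888 (plus) for Ifit1, chr5:120907526-120907775 (minus) for Oas1a, chr10:128270248-128270497 (plus) for Stat2, chr12:26456453-26456702 (minus) for Rsad2 and chr11:53769764-53770013 (plus) for the first of the Irf1 starts.
Ifit3: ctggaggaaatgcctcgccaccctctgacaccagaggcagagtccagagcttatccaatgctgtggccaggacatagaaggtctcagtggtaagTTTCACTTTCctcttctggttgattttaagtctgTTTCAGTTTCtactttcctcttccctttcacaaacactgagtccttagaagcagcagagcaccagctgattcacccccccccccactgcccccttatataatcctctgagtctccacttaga
Ifit1: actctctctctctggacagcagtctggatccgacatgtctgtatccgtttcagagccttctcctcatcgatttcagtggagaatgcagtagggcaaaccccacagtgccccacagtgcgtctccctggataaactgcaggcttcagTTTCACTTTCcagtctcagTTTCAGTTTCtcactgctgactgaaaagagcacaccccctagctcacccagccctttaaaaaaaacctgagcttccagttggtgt
Oas1a: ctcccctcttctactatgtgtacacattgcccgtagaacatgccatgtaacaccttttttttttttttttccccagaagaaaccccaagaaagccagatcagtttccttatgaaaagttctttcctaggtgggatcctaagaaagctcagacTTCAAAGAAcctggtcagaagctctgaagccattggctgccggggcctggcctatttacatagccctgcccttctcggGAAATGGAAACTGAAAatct
Stat2: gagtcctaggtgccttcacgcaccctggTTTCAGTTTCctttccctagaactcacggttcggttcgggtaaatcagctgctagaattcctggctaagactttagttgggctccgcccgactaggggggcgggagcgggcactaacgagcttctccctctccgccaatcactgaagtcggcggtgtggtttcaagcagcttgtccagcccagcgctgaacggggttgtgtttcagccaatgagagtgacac
Rsad2: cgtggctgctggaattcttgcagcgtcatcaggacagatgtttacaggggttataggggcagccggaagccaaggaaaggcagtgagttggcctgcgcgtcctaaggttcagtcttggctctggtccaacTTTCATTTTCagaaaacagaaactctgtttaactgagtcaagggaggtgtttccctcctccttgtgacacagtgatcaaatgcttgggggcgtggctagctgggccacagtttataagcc
Irf1: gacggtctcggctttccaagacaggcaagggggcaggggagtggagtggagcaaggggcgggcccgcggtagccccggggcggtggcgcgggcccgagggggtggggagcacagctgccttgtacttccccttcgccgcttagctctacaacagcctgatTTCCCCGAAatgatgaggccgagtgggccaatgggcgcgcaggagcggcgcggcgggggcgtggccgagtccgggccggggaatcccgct
Ifit3 and Ifit1 each hold 2 ISRE cores, and the matched bases are the same in both genes, TTTCACTTTC followed by TTTCAGTTTC. Oas1a holds 2 overlapping cores that end 5 bases before the start, and a GAS match further upstream. Stat2 and Rsad2 hold 1 core each, at 222 and 120 bases before the start. Irf1 holds no ISRE core in this window and a GAS match at 90 bases before the start. A match is a description of the letters and not a measured binding site.

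Of the 34 genes, 24 had promoters in the RefSeq table, and 9 of these held an ISRE core, against 3.46% of the 27025 genes in the table. A GAS match was found in 6 of the 24, against 8.13% of all genes. The other genes with an ISRE core were Oas3, Isg15, Bst2 and Trim30a, and Isg15 held 3 overlapping cores. The other genes with a GAS match were Ifit2, Isg20, Eif2ak2 and Bst2, and in Bst2 the GAS match overlaps the ISRE core. The search was for these letters only, so the genes without a match may hold elements that differ from them.

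The arrays also differed by their number in the labels, 1 or 2. In 17 of the 31 measured antiviral genes the difference between arrays numbered 2 and 1 was larger than that between genotypes. The share among all genes was not counted, but same-numbered arrays deviated together over all tested probe sets (correlation 0.80). The bacterial hybridisation controls, which are not made by the cells, had a 6.25-fold higher geometric mean signal on array 2 of the wild type than on its array 1, and for the knockout the ratio was 6.09. Differences are therefore given as the mean of both pairs and within each pair, arrays numbered 1 (pair 1) and arrays numbered 2 (pair 2), as knockout minus wild type on the log2(signal + 15.3) scale. This scale understates the change of dim genes. Furin itself gave signals of 435.1 and 343.9 on the wild-type arrays and 391.4 and 446.9 on the knockout arrays, a difference of 0.11 (SE 0.34). Its probe set may lie outside the deleted segment, so it checks neither the deletion nor the labels. The T cell markers Cd3e, Cd3d, Cd3g and Cd4 were bright on every array, between 2974.4 for Cd4 and 42640.1 for Cd3d.

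The antiviral genes were mostly higher in the knockout arrays, and unevenly so. Of the 31 measured genes, 25 were higher and 2 lower in both pairs, beside shares of 27.7% and 27.2% among all 10211 measured genes. Their median difference was 0.46, with medians of 0.40 in pair 1 and 0.34 in pair 2, beside -0.0017 for all measured genes. Mx1, the OAS genes Oasl2, Oas2 and Oasl1, Zbp1, Usp18 and Ifit3 stood highest, between 1.69-fold and 2.12-fold. Rsad2, Ifit2 and the RNA sensors Ddx58, Ifih1 and Dhx58 lay between -0.32 and 0.12. The 14 genes that were at least 0.5 higher in the mean and higher in both pairs compare with 4.38% of all genes. In 11 genes (Ifit3, Oas1a, Oasl1, Oasl2, Mx1, Usp18, Ifi35, Ifi47, Parp9, Stat2 and Irf1) both knockout arrays lay above both wild-type arrays, against 8.69% of all genes, and in 1, Dhx58, both lay below, against 8% of all genes. The genes were chosen with earlier results of these arrays known, so these counts describe them and are not independent evidence of a direction.

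**Figure D1:**
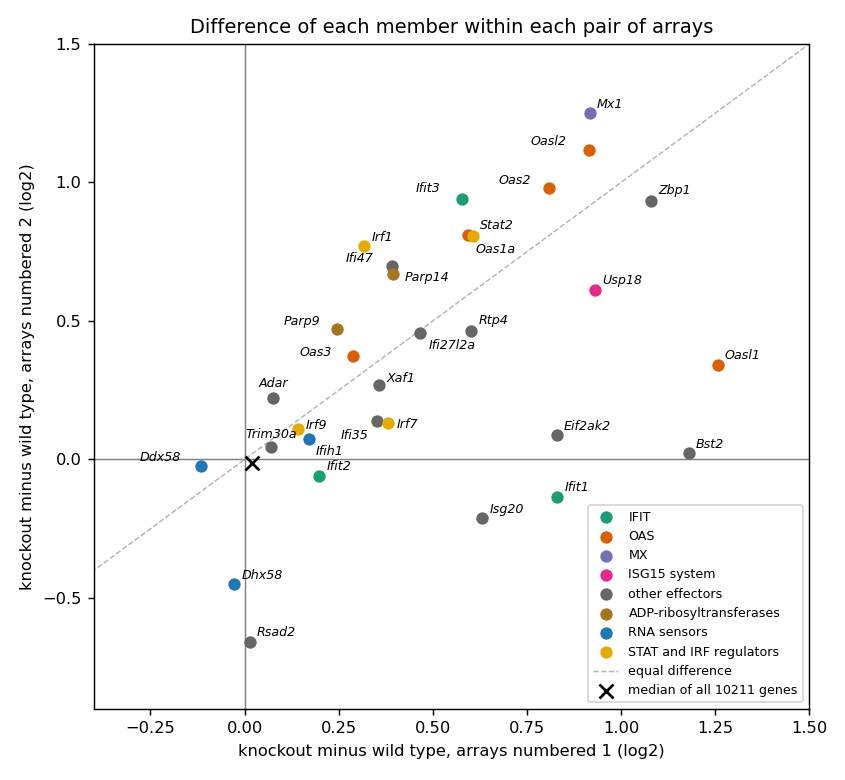
Difference of each of the 31 measured genes, knockout minus wild type in log2 units, within arrays numbered 1 (horizontal axis) and arrays numbered 2 (vertical axis), coloured by role; the dashed line marks equal differences and the cross the median of all 10211 measured genes. Most points lie in the upper right, with Mx1, Oasl2 and Zbp1 at or above 0.91 in both pairs. Bst2, Ifit1, Isg20, Oasl1 and Eif2ak2 lie far to the right of the line. Rsad2, Dhx58, Isg20, Ifit1, Ifit2 and Ddx58 lie below 0 in pair 2.

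No single probe set of these genes passed the test in the limma fit without a block, which called 0 of 22518 probe sets (0%) at a Benjamini-Hochberg threshold of 0.05, with 145 at an unadjusted p under 0.05. The smallest adjusted p among the 46 probe sets was 1, and 2 of them, those of Mx1 and Oasl2, had an unadjusted p under 0.05. With the array number as a replicate block limma called 6 probe sets (0.0266%), none of them among these genes, where the smallest adjusted p was 0.437 and 14 of the 46 had an unadjusted p under 0.05, beside 1897 (8.42%) of all probe sets in the same fit. With the block and a prior variance that follows the signal, limma called 260 probe sets (1.15%) and 7 of the 46, all higher. These were the probe sets of Zbp1, Ifi47, Oasl2, Usp18, Oas2, Irf1 and Ifit3. On simulated arrays this last fit made more false calls than its threshold states, so it stands here as an alternative only.

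The IFIT genes encode proteins that bind RNA lacking the marks of the cell's own transcripts. Ifit3 had signals of 976.4 and 791.6 on wild-type arrays 1 and 2 and of 1465.5 and 1532.3 on knockout arrays 1 and 2. Both knockout arrays lay above both wild-type arrays, and the difference was 0.76 (SE 0.33; pairs 0.58 and 0.94). Ifit1 gave signals of 777.2 and 1396.1 on the wild-type arrays and 1393.8 and 1270.0 on the knockout arrays. Only wild-type array 1 was low, and the difference of 0.35 (SE 0.42) came from pair 1 at 0.83, with pair 2 at -0.14. Ifit2 had signals of 2931.1 and 2406.2 against 3364.0 and 2309.3, with overlapping groups and a difference of 0.07 (SE 0.37; pairs 0.20 and -0.06). Ifit3 and Ifit1, whose promoters hold the same matched bases, were both higher in pair 1 and differed in sign in pair 2. A closely related copy, Ifit3b, may share signal with Ifit3.

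Many proteins of the OAS family sense double-stranded RNA and make short oligoadenylates that switch on RNase L, which cuts RNA in the infected cell. All 5 OAS genes were higher in the knockout array of both pairs, with a median of 0.80. Oasl2 gave signals of 406.3 and 307.5 on the wild-type arrays and 779.0 and 685.0 on the knockout arrays. The groups did not overlap, and the difference was 1.02 (SE 0.34; pairs 0.91 and 1.12), or 2.02-fold. Oas2 had signals of 815.2 and 361.5 against 1440.4 and 728.2. Here the arrays numbered 2 were lower in both genotypes, so the groups overlapped although the difference was 0.81 and 0.98 in the pairs (mean 0.90, SE 0.58). Oas1a, with signals of 1101.8 and 824.7 against 1670.8 and 1456.4, differed by 0.70 (SE 0.35; pairs 0.59 and 0.81) with no overlap. Oasl1, which in mice is known to hold back the translation of Irf7, had signals of 228.3 and 261.0 against 566.9 and 334.8. Its groups did not overlap, and knockout array 1 stood apart, with 1.26 in pair 1 and 0.34 in pair 2 (mean 0.80, SE 0.40). Of the 5, Oas3 was the least different, with signals of 431.1 and 188.5 against 530.2 and 249.0 and a difference of 0.33 (SE 0.59; pairs 0.29 and 0.38). Oas1a has closely related neighbours, among them Oas1g, that may share its signal.

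The MX proteins are dynamin-like GTPases that trap viral components, and Mx1 is known for blocking influenza virus in the nucleus. Mx1 was dim, with signals of 91.2 and 94.4 on the wild-type arrays and 185.8 and 245.5 on the knockout arrays. The wild-type arrays were nearly equal and both knockout arrays lay above them. The difference of 1.08 (SE 0.34, 95% interval 0.20 to 1.97; pairs 0.92 and 1.25), or 2.12-fold, was the largest of the 31 genes. Mx2 did not pass the filter, with signals of 16.7 and 14 on the wild-type arrays and 13.6 and 13.2 on the knockout arrays, close to the added 15.3. It is annotated as a pseudogene in the RefSeq table for the reference strain.

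Usp18 removes the ubiquitin-like protein ISG15 from its targets and also holds back the type I interferon receptor, so it is both a product and a brake of the response. It gave signals of 1413.2 and 1433.6 on the wild-type arrays, nearly equal, and 2710.4 and 2199.9 on the knockout arrays. The groups did not overlap and the difference was 0.77 (SE 0.33; pairs 0.93 and 0.61), or 1.71-fold.

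**Figure D2:**
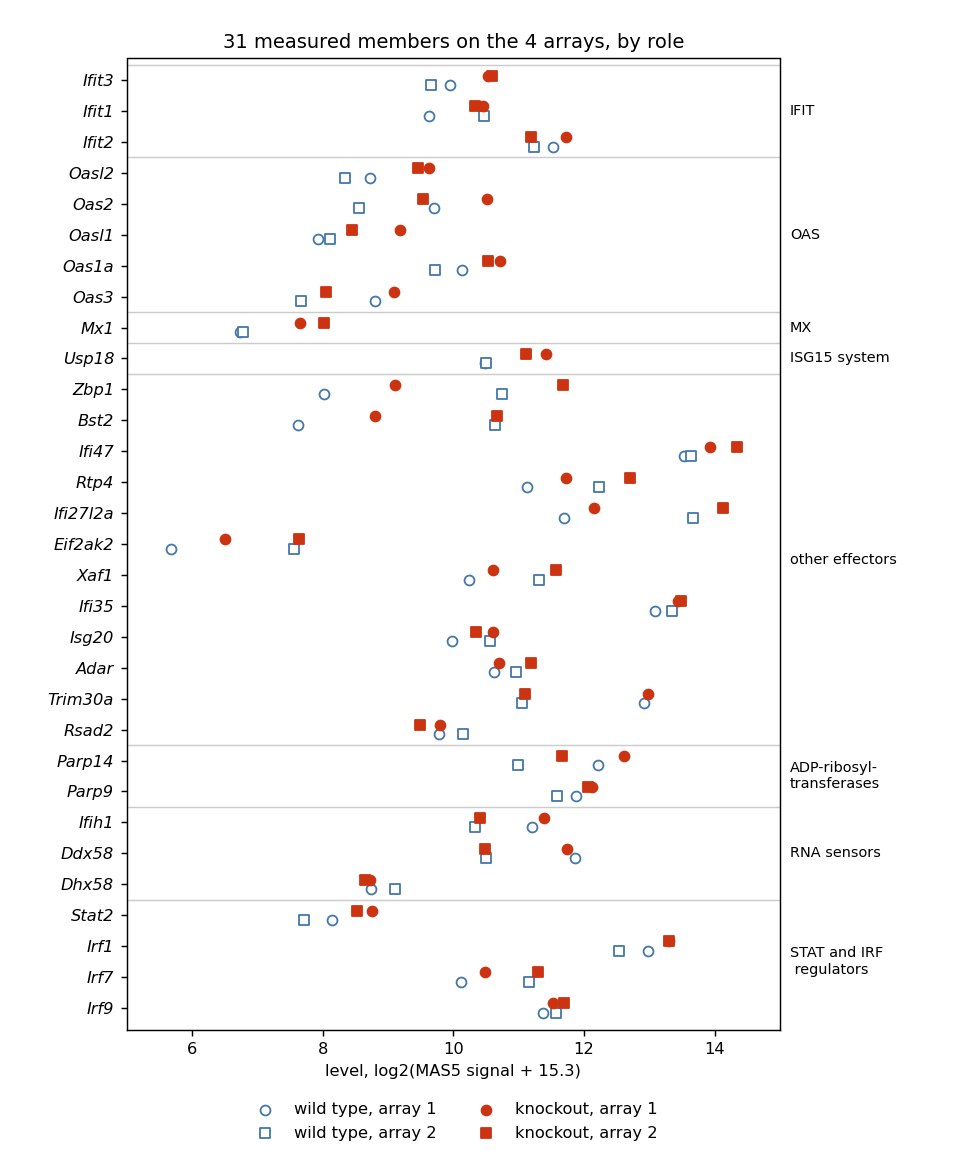
Level of the 31 measured genes on each of the 4 arrays, as log2(MAS5 signal + 15.3) on the horizontal axis, with genes grouped by role and ordered by difference within a role; open blue symbols are wild type, filled red ones knockout, circles arrays numbered 1 and squares arrays numbered 2. In Mx1, Usp18, Oasl2, Ifit3 and Stat2 the filled symbols lie to the right of both open ones, whereas in Zbp1, Bst2, Ifi27l2a and Trim30a circles and squares lie further apart than the genotypes.

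Among the other effectors, 10 of 12 measured genes were higher in the knockout array of both pairs and 0 were lower in both. The shares among all measured genes were 27.7% and 27.2%. The median difference of these effectors was 0.39. Zbp1 recognises nucleic acid in the Z form and can trigger cell death. It gave signals of 244.7 and 1705.0 on the wild-type arrays and 533.9 and 3266.0 on the knockout arrays. Its level followed the array number, so the groups overlapped, but within both pairs the knockout array was about as much higher, by 1.08 and 0.93 (mean 1.01, SE 1.25 without and 0.19 with the block). Bst2, or tetherin, holds budding virus particles at the cell surface. Its signals of 181.8 and 1579.7 against 431.2 and 1606.0 gave 1.18 in pair 1 and 0.02 in pair 2 (mean 0.60, SE 1.19), with the arrays numbered 2 nearly equal.

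Ifi47, a GTPase that belongs to the IRG family although it is listed with these genes, was bright, at 11874.2 and 12759.1 on the wild-type arrays and 15592.4 and 20721.3 on the knockout arrays. Its groups did not overlap and it differed by 0.55 (SE 0.34; pairs 0.39 and 0.70). Rtp4, a chaperone of membrane receptors, had signals of 2209.6 and 4807.1 against 3362.2 and 6636.3, and differed by 0.53 (SE 0.57; pairs 0.60 and 0.46). Its groups overlapped because the arrays numbered 2 were brighter in both genotypes. Ifi27l2a, a small membrane protein strongly induced by interferon, differed by 0.46 (SE 0.96) and alike in the pairs, at 0.47 and 0.46, although its signal ran from 3288.7 on wild-type array 1 to 17912.3 on knockout array 2. Ifi35 had 8727.7 and 10436.7 against 11133.1 and 11501.3, a small difference of 0.25 (SE 0.33; pairs 0.35 and 0.14) without overlap. This probe set is of a type that can detect more than a single gene. In the other Ifi35 probe sets above the filter, which differed by 0.28 and 0.17, the groups overlapped.

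The remaining effectors differed less or not alike in the pairs. Eif2ak2, the kinase PKR that stops translation on sensing double-stranded RNA, differed by 0.46 (SE 0.78; pairs 0.83 and 0.09). It was dim, with signals of 35.8 and 172.8 on the wild-type arrays and 75.5 and 184.6 on the knockout arrays. Its second probe set above the filter pointed the other way, at -0.41, with both knockout arrays below both wild-type arrays. Xaf1, a pro-apoptotic protein, differed by 0.31 (SE 0.56; pairs 0.36 and 0.27). Adar, which edits adenosine to inosine in double-stranded RNA, differed by 0.15 (SE 0.37; pairs 0.08 and 0.22). Trim30a, a ubiquitin ligase of the TRIM family, differed by 0.06 (SE 0.91; pairs 0.07 and 0.04). Isg20, an exonuclease, had signals of 993.3 and 1492.5 against 1547.8 and 1287.0 and differed by 0.21 (SE 0.38; pairs 0.63 and -0.21).

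Rsad2, the enzyme viperin, whose product ends viral RNA chains and which is among the genes most strongly induced by type I interferon, was the lowest of the 31. It gave signals of 860.3 and 1117.8 on the wild-type arrays and 868.7 and 702.8 on the knockout arrays. The arrays numbered 1 were nearly equal and knockout array 2 was low, giving -0.32 (SE 0.35; pairs 0.01 and -0.66). All 3 of its probe sets were lower in the mean, between -0.34 and -0.20. Its promoter, shown above, holds an ISRE core as those of Ifit3, Oas1a and Stat2 do.

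Parp9 and Parp14 encode ADP-ribosyltransferases that act on interferon signalling, and Parp9 works in a complex with the ubiquitin ligase Dtx3l. Parp14 gave signals of 4726.8 and 2019.7 on the wild-type arrays and 6222.6 and 3224.8 on the knockout arrays. The knockout array was higher in both pairs, by 0.40 and 0.67 (mean 0.53, SE 0.59), with overlap between the groups because the arrays numbered 1 were brighter. Parp9 had 3743.6 and 3062.0 against 4444.3 and 4254.3 and differed by 0.36 (SE 0.33; pairs 0.25 and 0.47) without overlap. Dtx3l, which was not among the 34 genes, had 2679.5 and 2286.5 against 4131.4 and 3644.6 and differed by 0.65 (SE 0.33; pairs 0.62 and 0.67), again without overlap.

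The cytoplasmic RNA sensors had the lowest median of the roles, -0.07. Ddx58, or RIG-I, which recognises short viral RNA ends, gave signals of 3690.1 and 1439.5 on the wild-type arrays and 3404.7 and 1414.6 on the knockout arrays. It differed by -0.07 (SE 0.67; pairs -0.12 and -0.02), and its other probe sets by 0.22 and 0.19. Ifih1, or MDA5, which recognises long double-stranded RNA, had 2355.6 and 1271.9 against 2653.7 and 1340.6, a difference of 0.12 (SE 0.53; pairs 0.17 and 0.08). Dhx58, or LGP2, which tunes both sensors, had 413.5 and 535.1 against 405.4 and 387.5. Both knockout arrays lay below both wild-type arrays, the nearest by little, with a difference of -0.24 (SE 0.34; pairs -0.03 and -0.45). In the fit without a block, which gave these SEs, the 95% interval of Ddx58 ran from -1.82 to 1.68. This interval and that of Ifih1 both contained a change the size of that of Mx1, so the fit did not exclude it. With the pair as a block, the alternative fit, the intervals ran from -0.54 to 0.40 for Ddx58 and from -0.35 to 0.59 for Ifih1. A rise of that size lay outside these intervals. It also lay outside those with the trended prior added, -0.40 to 0.26 for Ddx58 and -0.22 to 0.46 for Ifih1. For Dhx58 the interval without a block ran from -1.12 to 0.64, which excluded such a rise but not a fall of that size.

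All 4 STAT and IRF regulators were higher in the knockout array of both pairs, beside 27.7% of all measured genes, with a median of 0.40. Stat2, a subunit of the complex that binds the ISRE, gave signals of 268.1 and 195.6 on the wild-type arrays and 416.0 and 353.6 on the knockout arrays. Its groups did not overlap, with a difference of 0.71 (SE 0.35; pairs 0.61 and 0.81), or 1.63-fold. In the second Stat2 probe set, at 0.45, the groups overlapped. Irf1, a factor induced by interferon gamma, had 8051.1 and 5903.4 against 10035.8 and 10080.5. The knockout arrays were nearly equal and above both wild-type arrays, with a difference of 0.54 (SE 0.35; pairs 0.32 and 0.77). Irf7, which amplifies the production of type I interferon, differed by 0.26 (SE 0.53; pairs 0.38 and 0.13). Irf9, the DNA-binding subunit that joins Stat2, differed by 0.13 (SE 0.33; pairs 0.14 and 0.11), with signals of 2646.9 and 3037.1 against 2922.0 and 3282.8.

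The rest of the interferon pathway was described with a list of 71 genes, of which 54 passed the filter. Of these, 31 were higher and 7 lower in both pairs, beside 27.7% and 27.2% of all measured genes. Their median was 0.23 (0.20 in both pairs), and 0 of their 106 probe sets passed limma without a block or with it. With the block and the trended prior 8 of the 106 were called, those of Dtx3l, Epsti1, Ifitm3, Irf8 and Socs3. That fit called 260 (1.15%) of all probe sets, and on simulated arrays it made more false calls than its threshold states. None of the 5 listed interferon genes passed the filter. Ifng, the gene for interferon gamma, gave signals of 16.8 and 4.9 on the wild-type arrays and 83.2 and 48.6 on the knockout arrays. Both knockout arrays lay above both wild-type arrays, with 1.62 and 1.66 in the pairs, but with no filter its limma adjusted p was 1 (unadjusted 0.0144, from the fit across all probe sets). Ifnb1 ran from 23.9 to 34.7, and Ifna1, Ifna2 and Ifna4 from 1.8 to 34.1, all of them dim.

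Of the receptor chains, Ifngr1 was at 0.51 (SE 0.33; pairs 0.41 and 0.62), Ifnar2 at 0.36 (pairs 0.34 and 0.38), Ifnar1 at 0.17 (pairs 0.22 and 0.13) and Ifngr2 at 0.01 (pairs -0.05 and 0.07). The kinases Jak1, Jak2 and Tyk2 and the factor Stat3 lay between -0.11 and 0.29. Among the other IRF genes, Irf8 was higher by 1.58 (SE 0.39; pairs 1.08 and 2.08) and Irf4 by 0.93 (SE 0.45; pairs 0.78 and 1.08). Irf2, Irf3 and Irf5 lay between -0.28 and 0.24. Among the inhibitors, Socs3, which blocks JAK kinases, gave signals of 5109.0 and 3962.3 on the wild-type arrays and 8847.6 and 10987.6 on the knockout arrays. It was higher by 1.13 (SE 0.35; pairs 0.79 and 1.47), and the groups did not overlap. Socs1 was at 0.42 (pairs 0.28 and 0.57), Ptpn6 at -0.14 and Pias1 at -0.01. Sensing adaptors and kinases differed little, from -0.15 for Trim25 to 0.25 for Tbk1, with Myd88 at -0.13, Mavs at -0.05, Ikbke at -0.00 and Tlr7 at 0.20.

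**Figure D3:**
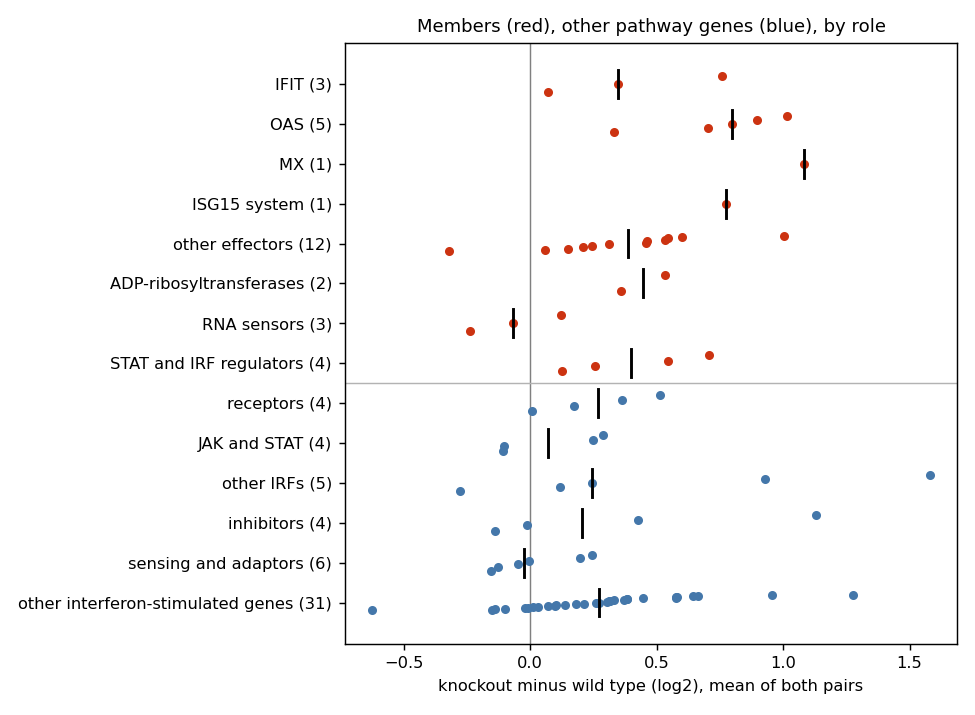
Difference, knockout minus wild type in log2 units (mean of both pairs), of the 31 measured antiviral genes (red) and 54 other interferon pathway genes (blue), by role, with the number of genes in brackets; black bars are medians. The OAS genes have a median of 0.80, the RNA sensors of -0.07 and the sensing adaptors of -0.03, and the widest range is that of the other interferon-stimulated genes, from -0.62 to 1.28.

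Among 31 further interferon-stimulated genes, 21 were higher and 4 lower in both pairs, beside 27.7% and 27.2% of all measured genes. Their median was 0.27. Ifitm3, a membrane protein that blocks viral entry, was higher by 1.28 (SE 0.59; pairs 0.90 and 1.65), and its relative Ifitm2 by 0.96 (SE 0.65), with 0.09 in pair 1 and 1.83 in pair 2. Cd274, the checkpoint ligand PD-L1, was higher by 0.66 (SE 0.32; pairs 0.56 and 0.77). The lowest were Slfn5, at -0.62 (SE 0.47; pairs -0.85 and -0.40), Parp11 at -0.15, Oas1b at -0.14 and Trim34a at -0.10.

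Most measured markers of B cells and myeloid cells, which lie outside the sort, were also higher in the knockout arrays, and more so in pair 2. The 7 measured B cell markers had medians of 0.29 in pair 1 and 1.63 in pair 2. Their list summed to signals of 1005.0 and 4293.6 on the wild-type arrays and 1494.3 and 15558.1 on the knockout arrays. The 9 measured myeloid markers had medians of 0.67 and 2.07, and the 11 with a probe set summed to 1343.7 and 4047.2 against 2058.2 and 13822.7. S100a9 and Ngp each had a wild-type mean of 6.16 (log2), under the filter level of 6.24, and passed through the knockout arrays. Cd14 (pairs 0.91 and -0.78) and Itgam (pairs -0.77 and 0.41) did not pass, nor did the B cell marker Pax5 (pairs -0.99 and 0.56). The antiviral genes had similar medians in both pairs, 0.40 and 0.34. Of the 6 listed markers of plasmacytoid dendritic cells, which produce type I interferon, 4 passed the filter with medians of 0.27 and 0.21, and Siglech, the defining surface lectin, did not, at 7.7 and 92.4 on the wild-type arrays and 23.2 and 11.5 on the knockout arrays. The T cell markers had medians of -0.17 and -0.01, with Ccr7 (pairs -0.45 and -0.14) and Il7r (pairs -0.26 and -0.29) lower in both pairs. The 6 measured markers of CD8 T and NK cells had medians of 0.20 and -0.04 with a wide spread. Among them the cytotoxic granule genes Gzma, at 1.78 (SE 0.46; pairs 1.35 and 2.21), and Nkg7, at 1.22 (SE 0.35; pairs 0.96 and 1.49), were higher in both pairs without overlap. Cd8a, Cd8b1, Klrd1 and Prf1 lay between -0.26 and 0.17. Ncr1, on the same list, did not pass the filter and was lower in both pairs (-0.54 and -0.83). No listed marker with a probe set was at 0 on any array, though S100a9 was at 1.7 on wild-type array 1. The values come without detection calls, so this does not show that any marker was expressed. In sorted populations, fewer cells of a type and less RNA per cell cannot be told apart, and the part of other cells in the antiviral differences was not tested. Irf8, Ifitm2 and Ifitm3, which are known to be expressed in myeloid cells too, were larger in pair 2. So were Socs3, Irf4, Mx1, Ifit3 and Irf1, among others, and whether other cells contribute to any of these was not tested.

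**Figure D4:**
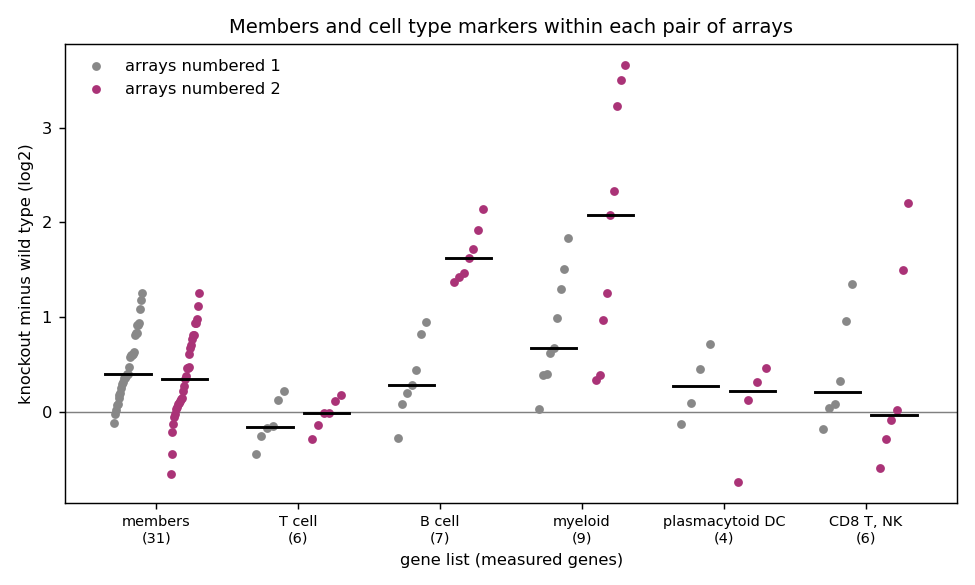
Difference, knockout minus wild type in log2 units, of each measured gene of a list within arrays numbered 1 (grey) and numbered 2 (purple), with black bars at the medians and the number of genes in brackets. The antiviral genes have medians of 0.40 and 0.34, while the B cell markers move from 0.29 to 1.63 and the myeloid markers from 0.67 to 2.07.

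Genes with and without a promoter match overlapped in their differences. The 8 measured genes with an ISRE core had a median difference of 0.47, from -0.32 for Rsad2 to 0.76 for Ifit3, and the 14 measured genes without a core one of 0.25, from -0.07 for Ddx58 to 1.02 for Oasl2. The 6 genes with a GAS match had a median of 0.50, from 0.07 for Ifit2 to 0.70 for Oas1a, and those without one a median of 0.28. These are descriptions over few genes and were not tested.

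Where a gene had several probe sets above the filter, they mostly shared a sign. This held for 8 of the 11 such genes, Rsad2, Zbp1, Xaf1, Trim30a, Rtp4, Ifi35, Parp14 and Stat2, and not for Eif2ak2, Adar and Ddx58. The sizes varied, however, from 0.05 to 0.53 in Rtp4 and from 0.68 to 1.01 in Zbp1. In the second Zbp1 probe set, pair 1 was at 1.12 and pair 2 at 0.25.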

How the data were processed

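The deposited values are MAS5 signal intensity values, 1 per probe set and array, which the authors made with MAS5 per the submitters' processing notes; no version or parameters, detection calls or depth come with them. The trimmed mean of each array was 500.003. Of 45037 probe sets beside 64 controls, 34945 had a single gene symbol in the platform annotation, 932 several and 9160 none. For 34741 of the 34945 the symbol was read through the Entrez ID in the RefSeq table (GRCm38.p6), whether or not it changed.

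Intensities were taken as log2(signal + 15.3), the added value being the 25% quantile. Probe sets with a mean above the median of all means (22518) were tested by lmFit and eBayes of limma (version 3.58.1, R 4.3.3; Benjamini-Hochberg threshold 0.05), knockout against wild type, 2 arrays each. Same-numbered arrays deviated together (correlation 0.80), and since the labels state no shared batch, the array number is a block only in alternatives. The scripts were tested on simulated data. Members and lists were chosen with earlier results of these data known, the GAS search and the values of further probe sets after the values were seen. All 34 symbols are named, with every array's value where a gene differed by at least 0.5 in the mean and in 1 direction in both pairs, and for others where the text turns on them. The number of arrays limits the precision.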

Additional observations from a re-analysis of the deposited data

How the results depend on the processing

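The median difference of the antiviral genes (0.46) was 0.35 with a larger added value, 0.41 with no filter, 0.36 with a stricter filter, 0.39 after quantile normalization and 0.36 when each gene's probe sets were averaged. That of the other pathway genes (0.23) was 0.22, 0.25, 0.21, 0.25 and 0.18 in the same order, and 0.22 with median centring. Between 24 and 25 of 31 genes stayed higher in both pairs, and 20 of 25 with the stricter filter. With the replicate block 6 probe sets were called, and 260 with a trended prior, 7 of them of antiviral genes. With the mean of probe sets Ddx58 was at 0.11, Ifngr2 at -0.35, Irf5 at 0.13, Irf3 at -0.0659, Pias1 at 0.0545, Trim25 at 0.0775, Mavs at 0.11 and Tlr7 at -0.0014. A fit without 1 of the arrays confounds genotype and number: calls stayed at 0, and the medians ran from 0.39 to 0.50 and from 0.22 to 0.34. The sign then turned in 34 genes, whose ranges were Ifit1 -0.0687 to 0.76, Ifit2 -0.20 to 0.34, Oas3 -0.23 to 0.90, Isg20 -0.0797 to 0.50, Zbp1 -0.36 to 2.37, Eif2ak2 -0.48 to 1.40, Adar -0.0917 to 0.39, Bst2 -0.91 to 2.11, Xaf1 -0.22 to 0.85, Trim30a -0.88 to 0.998, Rtp4 -0.0249 to 1.09, Ifi27l2a -0.53 to 1.45, Parp14 -0.077 to 1.14, Ddx58 -0.74 to 0.60, Ifih1 -0.37 to 0.61, Irf7 -0.27 to 0.78, Ifngr2 -0.74 to 0.75, Ifnar1 -0.0105 to 0.36, Jak1 -0.39 to 0.18, Tyk2 -0.24 to 0.0277, Jak2 -0.18 to 0.68, Irf5 -1.75 to 1.20, Irf3 -0.24 to 0.48, Irf2 -0.39 to 0.88, Pias1 -0.44 to 0.41, Socs1 -0.30 to 1.15, Trim25 -0.74 to 0.44, Myd88 -0.39 to 0.13, Mavs -0.37 to 0.27, Ikbke -0.15 to 0.14, Tbk1 -0.0637 to 0.55, Oas1b -0.48 to 0.20, Trim34a -0.42 to 0.22 and Furin -0.055 to 0.27. The cause was not tested.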

Other observations

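Several antiviral genes differed more between the arrays numbered 2 and 1 than between genotypes, which was not compared with all genes. As array 2 minus array 1 on the log2 scale, averaged over both genotypes, Zbp1 was higher by 2.65, Bst2 by 2.44, Ifi27l2a by 1.98 and Eif2ak2 by 1.51, whereas Trim30a was at -1.87 and Ddx58 at -1.30.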
